A study of Homo sapiens with 8 samples.

Results

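The genes described here are receptors and G proteins that act upstream of cAMP in SKOV3, a human cell line established from an ovarian cancer. They number 9 of the 67008 identifiers in the count table and were chosen by symbol, with earlier results of these data known. They comprise the neuromedin U receptor NMUR2 and its ligand NMU, the adenosine receptors ADORA1 and ADORA2B, the prostaglandin E2 receptors PTGER2 and PTGER4, and the G protein alpha subunits GNAS, GNAI1 and GNAI2. All 9 matched 1 identifier each, and 8 passed the filter on low counts for every test. PTGER4 did not pass, so its counts are given without a test.

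RNA-seq counts were available for the PDE10A knockout clones KO 5H5 and KO 2F4, for the empty-vector clone EV 1B9 and for parental SKOV3. All cells were untreated, and each of the 4 lines gave 2 libraries from separate culture passages. The knockout is therefore represented by 2 clones and the empty vector by 1. In comparisons of single lines, p-values measure only the spread between culture passages of a line. In the comparison of classes they also take in the spread between the lines pooled in a class. The 2 libraries of a line count there as separate replicates, although they are not independent. Knockout is set against control as 4 libraries of both clones against 4 libraries of EV 1B9 and parental cells. The design asks how loss of PDE10A, an enzyme that degrades cAMP and cGMP, changes expression in these cells.

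G protein-coupled receptors set cAMP through their alpha subunits. Gs, encoded by GNAS, stimulates adenylyl cyclase, whereas the Gi subunits encoded by GNAI1 and GNAI2 inhibit it. ADORA2B, PTGER2 and PTGER4 couple to Gs and raise cAMP, ADORA1 couples to Gi and lowers it, and NMUR2 couples to Gq, which raises calcium, and also to Gi. Phosphodiesterases such as PDE10A act after this step by removing the cAMP that was made.

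Promoter sequences of NMUR2, ADORA1 and ADORA2B are shown because NMUR2 and ADORA1 were the members that differed between lines by the test and ADORA2B was closest to its threshold. Each is the 250 bases upstream of the RefSeq start (GRCh38.p14), printed 5′ to 3′ along the strand of the gene. NMUR2 is at chr5:152405280-152405529 on the minus strand, ADORA1 at chr1:203127476-203127725 on the plus strand and ADORA2B at chr17:15944880-15945129 on the plus strand. By GENCODE coordinates the NMUR2 and ADORA1 windows lie within the annotated gene, and the ADORA2B window overlaps the start of that gene. Capitals mark a half-site of the cAMP response element (TGACG, searched on both strands), the motif bound by CREB.
NMUR2: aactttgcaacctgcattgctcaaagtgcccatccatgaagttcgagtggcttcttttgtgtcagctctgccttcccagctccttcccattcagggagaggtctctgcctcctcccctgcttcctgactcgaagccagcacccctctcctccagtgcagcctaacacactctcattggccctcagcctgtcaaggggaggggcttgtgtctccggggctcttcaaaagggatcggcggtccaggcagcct
ADORA1: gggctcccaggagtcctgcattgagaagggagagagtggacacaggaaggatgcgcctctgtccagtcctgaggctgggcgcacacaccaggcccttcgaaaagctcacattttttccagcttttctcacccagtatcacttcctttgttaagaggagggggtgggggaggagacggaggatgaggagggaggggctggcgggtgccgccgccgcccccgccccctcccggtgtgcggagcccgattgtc
ADORA2B: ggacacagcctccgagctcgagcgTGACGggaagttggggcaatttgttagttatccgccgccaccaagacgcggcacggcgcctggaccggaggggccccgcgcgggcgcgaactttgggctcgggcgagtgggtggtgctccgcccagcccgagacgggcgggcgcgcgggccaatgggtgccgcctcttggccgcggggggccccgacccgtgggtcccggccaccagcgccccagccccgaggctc
The full element TGACGTCA, which contains the half-site, was searched on both strands as well and was absent from the 17 RefSeq start windows of the 9 members. It was present in 1.65% of 35116 promoter windows of the same length, and the half-site in 21.2%. Beside ADORA2B, where the half-site began at position -226 counted from the start, it occurred in the window of PTGER2 and in some of the alternative start windows of GNAS and GNAI2. A match is a description of these letters and was not tied to binding.

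Counts within genes summed to 15483683 to 28648044 per library, and 24.1% (KO 5H5 2) to 44.6% (parental 1) of counted reads fell outside genes or matched several. The relation of expression to GC content also differed between libraries, with rank correlations of -0.494 in EV 1B9 2 to 0.413 in KO 2F4 2. Both EV 1B9 libraries had the lowest of these correlations. Offsets for GC content and gene length were fitted as an alternative. Markers of an ovarian carcinoma line summed to 7099 to 15839 CPM in knockout and 4838 to 12444 CPM in control libraries, although EPCAM within that list was at 0.150 to 1.10 CPM in knockout and 2.08 to 9.56 CPM in control libraries. Fibroblast markers summed to 7.34 to 1944 CPM in knockout and 27.0 to 142 CPM in control libraries, endothelial markers to 0.600 to 2.06 and 0.548 to 5.69 CPM, and haematopoietic markers to 0.247 to 1.67 and 0.0813 to 1.54 CPM, each with the knockout range given first. COL1A1, a collagen chain, carried the fibroblast sum, at 888 and 1924 CPM in KO 5H5 and 2.45 and 35.0 CPM in KO 2F4, against 24.3 and 121 CPM in EV 1B9 and 129 and 120 CPM in parental cells, whereas DCN, LUM, FAP and PDGFRA were under 1 CPM in every knockout library. In parental 1, DCN was at 3.997 CPM, LUM at 2.54, FAP at 2.92 and PDGFRA at 1.31 CPM. LUM was at 2.36 CPM in EV 1B9 2, and the remaining control values of these genes were under 1 CPM. The endothelial markers PECAM1 and VWF and the haematopoietic marker PTPRC were also highest in parental 1, at 2.31, 2.23 and 1.15 CPM. That library also had the largest share of reads outside genes. PDGFRB, also in the fibroblast list, was at 8.22 and 17.1 CPM in KO 5H5 and 3.07 and 5.93 CPM in KO 2F4. Its control values were 0.0288 and 0.122 CPM in EV 1B9 and 2.46 and 1.83 CPM in parental cells. THY1 was at 1.10 to 3.68 CPM in knockout and 0.231 to 1.70 CPM in control libraries. CD3E was at 0 in all libraries, and a part of these markers in the results was not tested. PDE10A itself was at 0.222 and 0.424 CPM in KO 5H5 and 0.192 and 2.33 CPM in KO 2F4, against 5.28 and 8.95 CPM in EV 1B9 and 9.22 and 2.46 CPM in parental cells. The second KO 2F4 library lay close to the lower parental library. The log2 fold change of knockout against control was -3.07 (standard error 0.84, adjusted p 0.0988, edgeR), which did not pass. With counts summed per line it was -3.06 (adjusted p 0.358, edgeR). Without KO 2F4 2 it was -4.42 (adjusted p 0.0125). That library had the most PDE10A of the knockout libraries, so leaving it out enlarges the difference by construction. The position of the knockout lesion was not analysed here.

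NMUR2 (ENSG00000132911.4, chromosome 5, 152391532 to 152433368, minus strand, GRCh38), a receptor for the peptides neuromedin U and neuromedin S, was almost absent from both knockout clones. It was detected in every EV 1B9 and parental library. Levels, given as CPM (TMM-scaled counts relative to the size of each library), were 0.222 and 0.0353 CPM in KO 5H5 and 0 and 0 CPM in KO 2F4, against 40.0 and 41.8 CPM in EV 1B9 and 11.8 and 16.2 CPM in parental cells. These rest on 4, 1, 0 and 0 counts in the knockout libraries and on 1386, 1028, 154 and 362 counts in the control libraries. The 4 knockout libraries lay below the 4 control libraries without overlap; of all genes tested, 10.6% had classes that did not overlap, in either direction. Means were 0.0644 ± 0.107 CPM in knockout and 27.4 ± 15.6 CPM in control libraries (SD, n = 4 each).

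NMUR2 fell by 8.64 on the log2 scale in knockout against control (standard error 0.89, adjusted p 0.00054, edgeR, with p-values of its quasi-likelihood test adjusted by Benjamini and Hochberg's method over 13508 genes). Summed counts relative to library size were 498 times higher in control than in knockout libraries (95% interval for counting error 213 to 1536). With the counts of each line summed, so that 2 lines stood against 2, the log2 fold change was -8.71 (standard error 1.14, adjusted p 0.0383). Of 16052 genes tested in that way 0.0685% were called. The call held in all 21 alternatives run, with log2 fold changes of -12.19 to -7.67 and adjusted p of 2.5e-28 to 0.0392.

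Each clone showed the difference against each control. These comparisons share libraries, so they are not independent. KO 5H5 fell by 8.33 against EV 1B9 (standard error 0.78, adjusted p 5.51e-05) and by 6.85 against parental cells (standard error 0.75, adjusted p 0.000772) on the log2 scale, by edgeR. In KO 2F4 no read was counted, and at a floor of 3 counts over both libraries NMUR2 was at least 464-fold lower than in EV 1B9 (adjusted p 2.72e-05) and at least 166-fold lower than in parental cells (adjusted p 0.000338). The 2 controls were themselves unequal, at 40.9 ± 1.31 CPM in EV 1B9 and 14.01 ± 3.07 CPM in parental cells (SD, n = 2 each). That difference of 1.47 on the log2 scale (standard error 0.53) did not pass the test (adjusted p 0.154, edgeR), but did without KO 2F4 1 (1.61, adjusted p 0.0188) or KO 2F4 2 (1.505, adjusted p 0.0328).

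**Figure D1:**
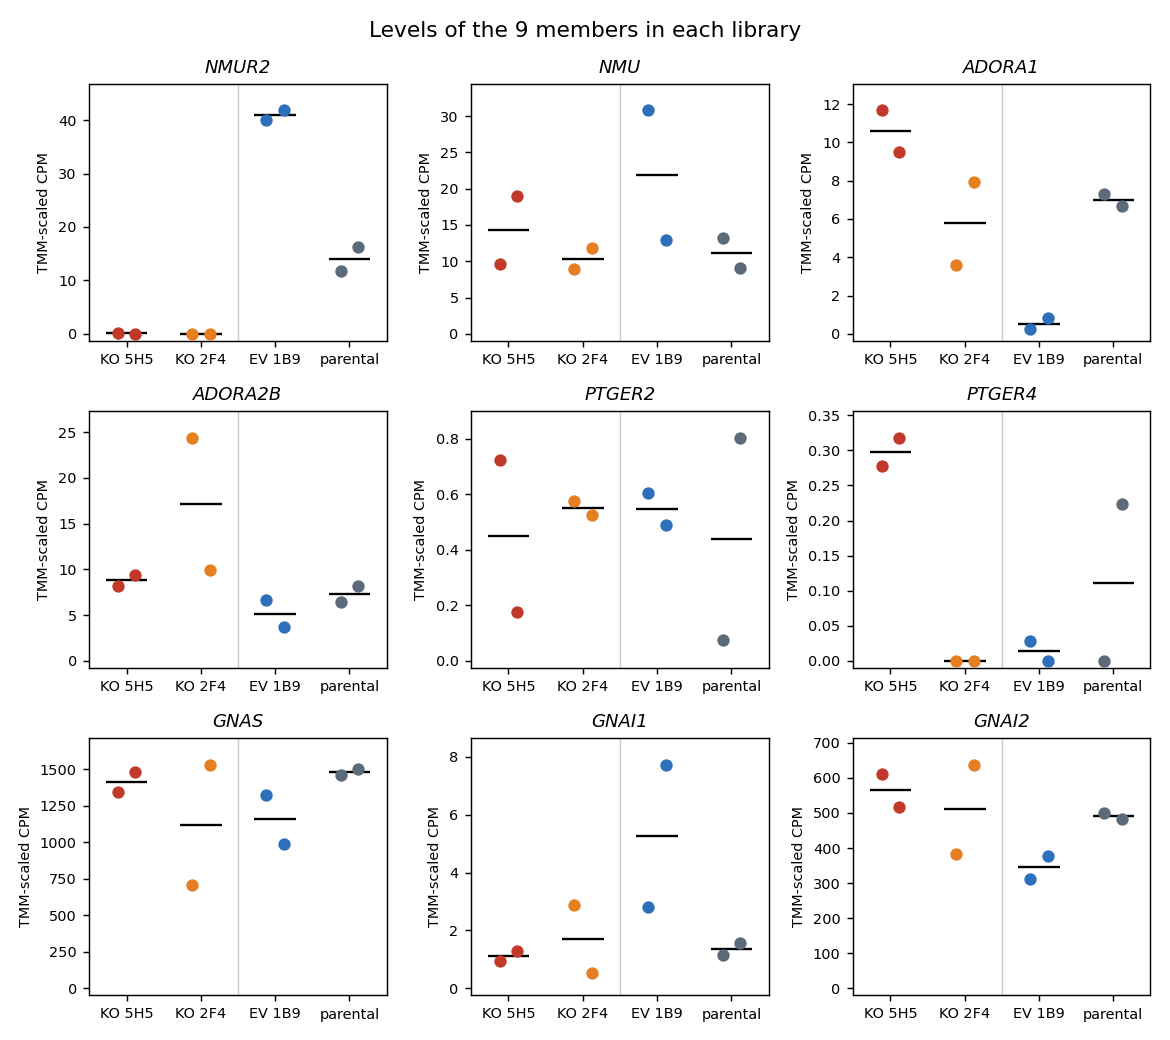
TMM-scaled CPM of the 9 members in each library; each panel has its own axis, points are libraries and lines are means of the 2 libraries of a line. NMUR2 was at 0 to 0.222 CPM in the 4 knockout libraries and at 11.8 to 41.8 CPM in the 4 control libraries, and ADORA1 was at 0.231 and 0.813 CPM in EV 1B9 alone.

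The ligand NMU (ENSG00000109255.11, chromosome 4), the peptide that activates NMUR2, was present in all lines. It was at 9.67 and 19.0 CPM in KO 5H5 and 8.92 and 11.8 CPM in KO 2F4, against 30.8 and 12.9 CPM in EV 1B9 and 13.2 and 9.12 CPM in parental cells. Knockout and control libraries overlapped, and the first EV 1B9 library was the highest. The log2 fold change of NMU was -0.42 (standard error 0.45, adjusted p 0.693, edgeR). It was -0.24 with GC and length offsets and 0.12 against parental cells alone, so its direction depended on the control. NMUR2 thus differed by the test while its ligand did not pass it, and the difference between these 2 genes was not tested.

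Among the 8 members tested, NMUR2 was the only call for knockout against control, 12.5% of members beside 1.42% of all genes (192 of 13508). It was the 1 member called lower, where 1.13% of all genes were, and 0 members were called higher, where 0.296% of all genes were. NMUR2 passed the filter on low counts through its control libraries, so its place among the tested members already required a difference, and the share of members called is given as a description. The members were also chosen with earlier results of these data known. At an unadjusted p under 0.05 there were 2 of 8 members, NMUR2 and ADORA2B, beside 15.1% of all genes (2041 of 13508).

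ADORA1 (ENSG00000163485.17, chromosome 1, 203090654 to 203167405, plus strand), the Gi-coupled adenosine A1 receptor, set EV 1B9 apart from the other 3 lines. It was at 11.7 and 9.51 CPM in KO 5H5 and 3.60 and 7.95 CPM in KO 2F4, against 0.231 and 0.813 CPM in EV 1B9 and 7.30 and 6.66 CPM in parental cells. Both EV 1B9 libraries, with 8 and 20 counts, lay below all others, and both parental libraries lay within the range of the knockout libraries. Line means were 10.6 ± 1.53 CPM in KO 5H5, 5.78 ± 3.08 in KO 2F4, 0.522 ± 0.412 in EV 1B9 and 6.98 ± 0.454 in parental cells (SD, n = 2 each).

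ADORA1 was 4.44 higher on the log2 scale in KO 5H5 than in EV 1B9 (standard error 0.75, adjusted p 0.00300, edgeR) and 3.499 higher in KO 2F4 (standard error 0.72, adjusted p 0.00843). Against parental cells neither clone passed the test, at 0.63 for KO 5H5 (standard error 0.64, adjusted p 0.808) and -0.31 for KO 2F4 (standard error 0.64, adjusted p 0.898). EV 1B9 itself was 3.81 lower than parental cells (log2 fold change -3.81, standard error 0.73, adjusted p 0.0181). These comparisons share the EV 1B9 libraries, so they are not independent. All 3 calls held in 14 of 14 alternatives, with adjusted p up to 0.00613, 0.0348 and 0.0387 in that order. With GC and length offsets the log2 fold changes were 4.08, 2.86 and -3.21.

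For knockout against control as classes, ADORA1 had a log2 fold change of 1.14 (standard error 0.84, adjusted p 0.550, edgeR), which did not pass. With parental cells as the only control it was 0.20 (adjusted p 0.948). It was called with 1 mean per line (2.04, adjusted p 0.0194) and with EV 1B9 as the only control (4.06, adjusted p 0.0150). Both of these calls rest on the low level in EV 1B9.

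ADORA2B (ENSG00000170425.3, chromosome 17), the Gs-coupled A2B adenosine receptor, was at 8.17 and 9.44 CPM in KO 5H5 and 24.4 and 9.91 CPM in KO 2F4, against 6.63 and 3.74 CPM in EV 1B9 and 6.46 and 8.22 CPM in parental cells. The first KO 2F4 library was far above the rest, and the lowest knockout library lay just under the highest control library. For knockout against control the log2 fold change was 1.05 (standard error 0.46, adjusted p 0.311, edgeR), and without KO 2F4 1 it was 0.55 (adjusted p 0.671).

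The largest difference of ADORA2B among lines was KO 2F4 against EV 1B9, at 1.80 on the log2 scale (standard error 0.57, adjusted p 0.0508, edgeR), just short of the threshold. It passed in 7 of 14 alternatives, among them GC and length offsets (2.34, adjusted p 0.00427) and DESeq2 (adjusted p 0.0129). KO 5H5 against EV 1B9 gave 0.87 (standard error 0.56, adjusted p 0.452). Against parental cells KO 5H5 gave 0.29 (standard error 0.55, adjusted p 0.920) and KO 2F4 gave 1.22 (standard error 0.56, adjusted p 0.353).

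PTGER2 (ENSG00000125384.7, chromosome 14) and PTGER4 (ENSG00000171522.6, chromosome 5), the Gs-coupled EP2 and EP4 receptors for prostaglandin E2, were barely detected. PTGER2 was at 0.722 and 0.177 CPM in KO 5H5 and 0.575 and 0.525 CPM in KO 2F4, against 0.606 and 0.488 CPM in EV 1B9 and 0.0769 and 0.805 CPM in parental cells. That is 1 to 21 counts a library, and the log2 fold change of -0.02 (standard error 0.87, adjusted p 0.994, edgeR) leaves a difference undetectable at this depth. PTGER4 had 5 and 9 counts in KO 5H5 libraries and 0 and 0 in KO 2F4 libraries, against 1 and 0 counts in EV 1B9 and 0 and 5 in parental cells. Its annotation overlaps TTC33 on the other strand, which held 345 counts in all libraries together. Without a stated strand setting for the counting, those reads cannot be told apart with certainty.

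GNAS (ENSG00000087460.25, chromosome 20, 58839718 to 58911192), the stimulatory alpha subunit, had the highest level per length of the 9 members in both classes. It was at 1346 and 1479 CPM in KO 5H5 and 704 and 1531 CPM in KO 2F4, against 1326 and 991 CPM in EV 1B9 and 1462 and 1501 CPM in parental cells. The lowest value was the first KO 2F4 library, and the groups overlapped throughout. The log2 fold change was -0.06 (standard error 0.34, adjusted p 0.950, edgeR), and its sign turned with EV 1B9 as the only control (0.22) or KO 5H5 as the only knockout (0.12). With GC and length offsets it was -0.20; those offsets moved KO 2F4 against EV 1B9 to -0.69 (adjusted p 0.286), against -0.01 without them, and KO 5H5 against EV 1B9 to -0.11, against 0.39. The gene-level count adds up transcripts from several promoters of the imprinted GNAS locus, including forms other than Gs alpha. Antisense GNAS-AS1 held only 22 counts in all libraries together.

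GNAI2 (ENSG00000114353.17, chromosome 3), a broadly expressed Gi subunit, was at 611 and 518 CPM in KO 5H5 and 383 and 638 CPM in KO 2F4, against 311 and 378 CPM in EV 1B9 and 500 and 484 CPM in parental cells. The lowest values were again the 2 EV 1B9 libraries and the first KO 2F4 library. Its log2 fold change was 0.36 (standard error 0.31, adjusted p 0.611, edgeR). Against EV 1B9 it was 0.80 for KO 5H5 (standard error 0.42, adjusted p 0.340) and 0.60 for KO 2F4 (standard error 0.42, adjusted p 0.339), so neither passed. With GC and length offsets these values were 0.41 and 0.24.

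GNAI1 (ENSG00000127955.17, chromosome 7), a second Gi subunit, was at 0.944 and 1.27 CPM in KO 5H5 and 2.88 and 0.525 CPM in KO 2F4, against 2.80 and 7.73 CPM in EV 1B9 and 1.15 and 1.56 CPM in parental cells. EV 1B9 2 stood above all others, and the remaining libraries overlapped. The log2 fold change of knockout against control was -1.23 (standard error 0.75, adjusted p 0.465, edgeR). It was -0.32 without EV 1B9 2 (adjusted p 0.926) and -1.84 without KO 2F4 1 (adjusted p 0.409). It was -0.20 with GC and length offsets, and GNAI1 had the lowest GC content of the 9 members, at 37.1%. KO 2F4 against EV 1B9 gave -1.55 (standard error 0.91, adjusted p 0.257). Without KO 2F4 1, the higher library of that clone, it was -3.44. That value rests on 1 library of the clone, with 7 counts.

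**Figure D2:**
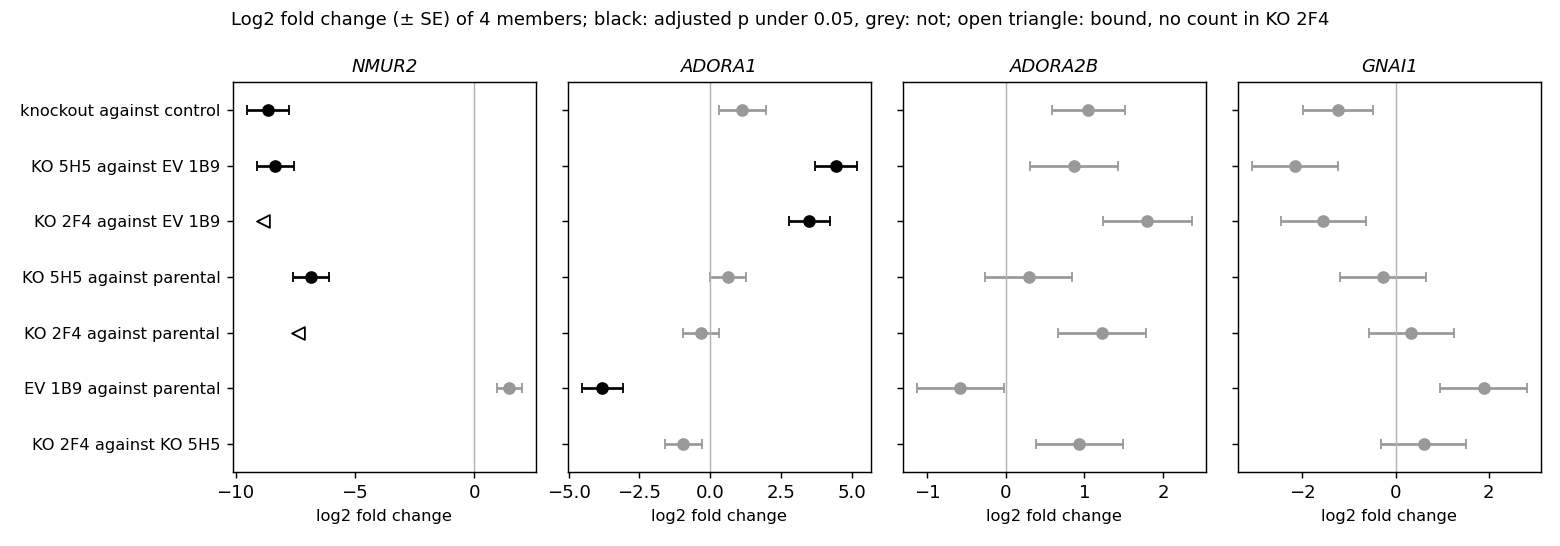
Log2 fold changes with their standard errors (bars) for NMUR2, ADORA1, ADORA2B and GNAI1, for knockout against control and for each pair of lines; each panel has its own axis and black points passed an adjusted p of 0.05. Open triangles are bounds for NMUR2 at the floor of 3 counts (-8.86 against EV 1B9 and -7.38 against parental cells), since KO 2F4 had no count; no value is drawn for KO 2F4 against KO 5H5 there. ADORA1 was 4.44 and 3.499 higher in the clones than in EV 1B9, but at 0.63 and -0.31 against parental cells.

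Over the line comparisons, members called were 1 higher (ADORA1) and 1 lower (NMUR2) for KO 5H5 against EV 1B9, beside 4.38% of all 15551 genes tested (2.69% higher and 1.68% lower). The same 2 genes were called in the same directions for KO 2F4 against EV 1B9, where 13.0% of all genes were called (6.87% higher and 6.11% lower). Against parental cells NMUR2 was the 1 member called for KO 5H5 (background 0.740% in either direction and 0.624% lower) and for KO 2F4 (background 1.34% and 1.04%). ADORA1 was the 1 member called for EV 1B9 against parental cells (background 1.34% and 1.18%). KO 2F4 against KO 5H5 gave 0 calls among members by edgeR and 0.392% over all genes, with 1 of 8 members and 10.7% of all genes at an unadjusted p under 0.05.

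Levels of different genes were compared as CPM per kilobase of the longest protein-coding transcript. In knockout libraries the order was GNAS (314 ± 94.8), GNAI2 (218 ± 46.6), NMU (15.1 ± 5.65), ADORA2B (7.48 ± 4.41), ADORA1 (2.40 ± 1.00), PTGER2 (0.210 ± 0.0970), GNAI1 (0.139 ± 0.102), PTGER4 (0.0387 ± 0.0449) and NMUR2 (0.0311 ± 0.0514; SD, n = 4). In control libraries it was GNAS (328 ± 57.6), GNAI2 (170 ± 36.3), NMU (20.2 ± 11.9), NMUR2 (13.2 ± 7.54), ADORA2B (3.61 ± 1.07), ADORA1 (1.10 ± 1.10), GNAI1 (0.327 ± 0.299), PTGER2 (0.207 ± 0.129) and PTGER4 (0.0164 ± 0.0280; SD, n = 4). NMUR2 was thus in place 9 of 9 in knockout cells and in place 4 in control cells, ahead of both adenosine receptors. Neighbours whose means lay closer than the larger of their SDs were PTGER2 and GNAI1, GNAI1 and PTGER4, and PTGER4 and NMUR2 in knockout cells. In control cells they were NMU and NMUR2, ADORA1 and GNAI1, and GNAI1 and PTGER2. With the union of exons as length, GNAI1 and PTGER2 changed places in control cells and the rest of the order stayed. The 2 control lines differed in the place of ADORA1, which was at 0.153 ± 0.121 in EV 1B9, in place 8 and below GNAI1 (0.520 ± 0.344) and PTGER2 (0.229 ± 0.0349), and at 2.05 ± 0.133 in parental cells, above both GNAI1 (0.134 ± 0.0287) and PTGER2 (0.185 ± 0.216; CPM per kilobase, SD, n = 2 each).

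The 5 protein-coding genes whose log2 CPM profile over the 8 libraries, centred per gene, lay nearest to that of NMUR2 were MGAT3, DPYSL5, GALNT16, PI16 and KRT6A. Their root-mean-square distances were 0.90, 0.95, 0.98, 1.00 and 1.03 log2 units. MGAT3, which adds bisecting N-acetylglucosamine to N-glycans, was at 0.111, 0, 0.384 and 0 CPM in the knockout libraries, against 55.7, 56.5, 24.8 and 30.4 CPM in EV 1B9 and parental libraries. DPYSL5, a collapsin response mediator, was at 0.556, 0.0707, 0 and 0 CPM in the knockout libraries, against 103, 141, 85.8 and 60.6 CPM in the control libraries. PI16, a peptidase inhibitor, was at 0.212 to 0.722 CPM in the knockout libraries and 12.1 to 46.2 CPM in the control libraries. GALNT16, an enzyme of mucin-type glycosylation, and KRT6A, a keratin, were at most 0.333 CPM in the knockout libraries. All 5 had higher means in EV 1B9 than in parental cells, and none of these differences passed the test (adjusted p 0.106 to 0.533, edgeR). Since these genes were chosen for their likeness, their values are a description and carry no test.

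**Figure D3:**
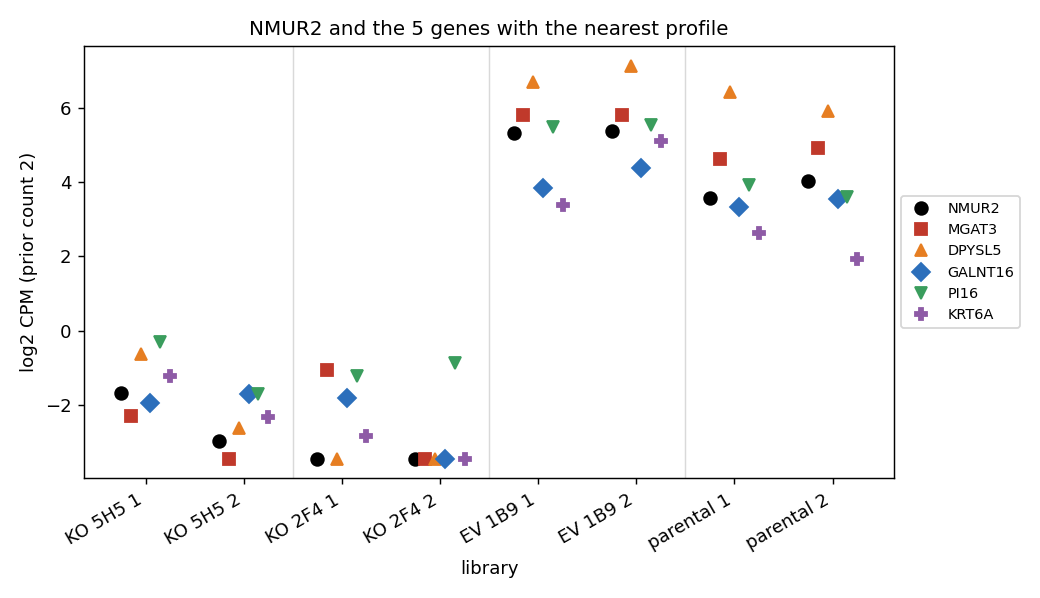
Log2 CPM (prior count 2) of NMUR2 and of the 5 protein-coding genes nearest to its profile, per library; markers are offset sideways to separate genes. All 6 were low in the 4 knockout libraries and high in the 4 control libraries, and the lowest attainable value marks 0 counts.

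The wider pathway was described with 7 lists of 205 genes, of which 68 passed the filter on low counts. The lists were chosen with earlier results of these data known, so the shares called are a description. For knockout against control 0 were higher and 2 lower (2.94%, beside 1.42% of all genes), with 17 (25.0%) at an unadjusted p under 0.05, where 15.1% of all genes were. In each list below, counts at an unadjusted p stand beside that same 15.1% of all genes, and calls beside 1.42% of all genes (1.13% lower). The median log2 fold change of the 68 was -0.06, against -0.14 for all genes.

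Of 56 further Gi-coupled receptors 3 were tested, and ADRA2C, the alpha-2C adrenergic receptor, fell. It was at 29.2, 15.8, 11.3 and 16.9 CPM in the knockout libraries, against 84.2, 82.5, 115 and 74.8 CPM in the control libraries. No knockout library reached a control library, and the log2 fold change was -2.28 (standard error 0.36, adjusted p 0.00835, edgeR). The call was lost with KO 5H5 as the only clone (adjusted p 0.0949) and with counts summed per line (adjusted p 0.233). S1PR1, a sphingosine 1-phosphate receptor of the same list, was at 14.3, 18.8, 2.54 and 6.45 CPM in the knockout libraries, against 0.0288, 0.0407, 1.61 and 2.82 CPM in the control libraries, and did not pass (adjusted p 0.182).

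Of 38 further Gs-coupled receptors 5 were tested, with a median log2 fold change of 0.41 and 0 calls by edgeR, 2 of 5 at an unadjusted p under 0.05. AVPR2, the V2 vasopressin receptor, was at 24.9 and 15.4 CPM in KO 5H5 and 1.39 and 3.30 CPM in KO 2F4, against 0.313 to 4.92 CPM in control libraries. Its high level was thus seen in 1 clone, and the log2 fold change of 2.25 did not pass (standard error 0.89, adjusted p 0.257). PTH1R, the parathyroid hormone receptor, had a log2 fold change of -3.16 (standard error 0.97, adjusted p 0.135).

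Of 36 Gq-coupled receptors 11 were tested, with a median of 0.02 and 0 calls by edgeR, 2 of 11 (18.2%) at an unadjusted p under 0.05. EDNRA, the endothelin A receptor, had 2 counts in all knockout libraries and 72 in all control libraries, with an adjusted p of 0.0650 (edgeR). That was 30.6 times more in controls relative to library size (95% interval for counting error 8.17 to 258). EDNRA passed the filter on low counts through its control libraries, so these values are a description. F2RL1, the protease-activated receptor PAR2, had a log2 fold change of -1.61 (standard error 0.60, adjusted p 0.233). It was called lower in KO 2F4 than in EV 1B9 (-2.84, adjusted p 0.00647, edgeR), but not against parental cells.

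Among the subunits that complete the trimer, 8 other alpha subunits (median -0.57, 2 at an unadjusted p under 0.05) and 10 beta and gamma subunits (median -0.16, 1 at an unadjusted p under 0.05) were tested, with 0 calls by edgeR in each. GNA12, an alpha subunit outside the Gs and Gi classes, was at 101 to 130 CPM in knockout and 51.3 to 70.1 CPM in control libraries. These ranges did not overlap, but the log2 fold change of 0.94 did not pass (standard error 0.28, adjusted p 0.130). GNAZ, a Gi-family subunit, had a log2 fold change of -1.12 (adjusted p 0.299), and GNG11, a gamma subunit, -2.05 (adjusted p 0.136). GNB5, a beta subunit that pairs with RGS proteins, was at -0.80 (adjusted p 0.347). Against EV 1B9 alone, GNG11 was called lower in each clone, at -3.04 for KO 5H5 and -2.33 for KO 2F4. Its adjusted p was 0.0135 and 0.0261 (edgeR), and these calls held in 13 and 11 of 14 alternatives. GNGT2 was called higher in each clone, at 3.33 and 3.55. GNAI3 (-1.46, adjusted p 0.0452) and GNB4 (-1.92, adjusted p 0.0392) were called lower in KO 2F4. Against parental cells none of these was called.

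Of 29 regulators of receptors and G proteins 20 were tested, with a median of 0.08, 0 calls by edgeR and 3 of 20 at an unadjusted p under 0.05. RGS14, which speeds GTP hydrolysis by Gi subunits, was at 10.9, 9.51, 15.1 and 33.5 CPM in the knockout libraries, against 2.68, 4.03, 4.38 and 6.70 CPM in the control libraries. All knockout values exceeded all control values, and the log2 fold change of 1.95 (standard error 0.50) had an adjusted p of 0.0805. GRK6, a receptor kinase, had a log2 fold change of 1.28 (standard error 0.43, adjusted p 0.174).

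Of 16 genes that supply or remove adenosine and prostaglandin 11 were tested, with a median of -0.47, 1 called (lower, where 1.13% of all genes were) and 5 at an unadjusted p under 0.05. SLC29A2, a nucleoside transporter that carries adenosine across the membrane, fell. It was at 6.94, 5.37, 5.32 and 6.38 CPM in the knockout libraries, against 23.3, 39.8, 26.1 and 19.6 CPM in the control libraries. The groups did not overlap, and the log2 fold change was -2.18 (standard error 0.37, adjusted p 0.0124, edgeR). The call held in 14 of 21 alternatives and was lost without KO 5H5 1 (adjusted p 0.0569) or KO 2F4 1 (adjusted p 0.0526), with parental cells as the only control, with either clone alone, with counts summed per line and with limma-voom (adjusted p 0.0649 to 0.355). ENTPD2, an ectonucleotidase that breaks down extracellular ATP, was at 0.722, 0.389, 0 and 0 CPM in the knockout libraries. In the control libraries it was at 3.72, 14.6, 2.23 and 4.69 CPM, with an adjusted p of 0.0639 (edgeR). ENTPD2 passed the filter on low counts through its control libraries, so this value is a description.

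**Figure D4:**
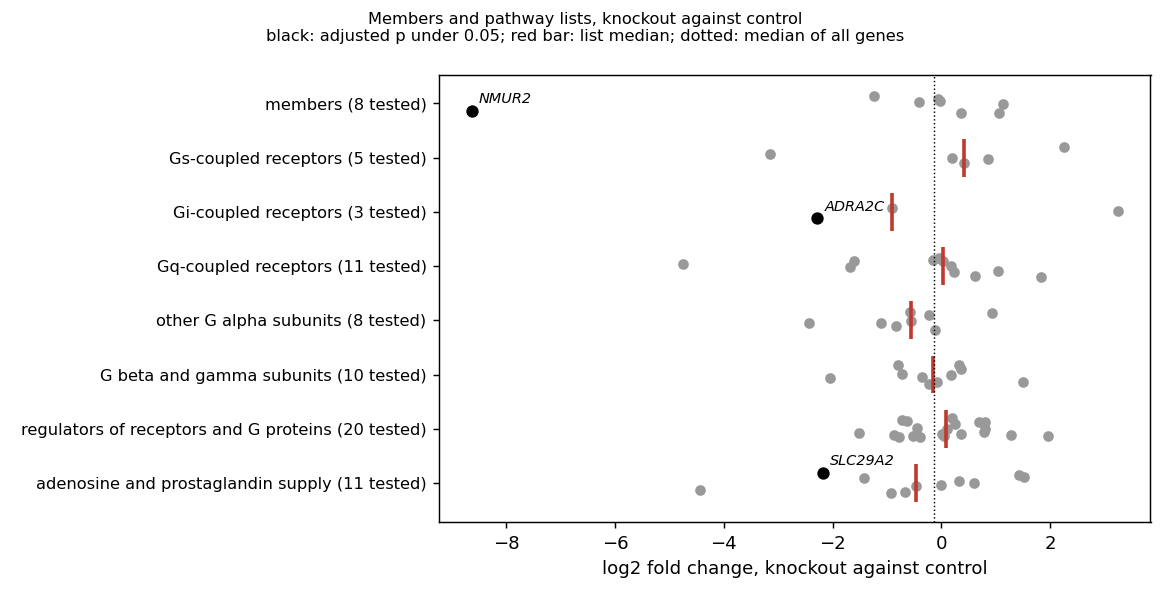
Log2 fold change of knockout against control for each tested member and each tested gene of the 7 pathway lists; black points passed an adjusted p of 0.05, red bars are list medians and the dotted line is the median of all genes (-0.14). NMUR2, ADRA2C and SLC29A2 are the 3 genes past the threshold, all of them lower in knockout libraries.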

How the data were processed

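RNA from 8 untreated SKOV3 cultures was sequenced with a directional kit, per the labels. The authors deposited 1 table of raw read counts, with a row for each gene and a column for each library. In the submitters' processing notes the tools are DESeq2 1.26.0, HTSeq 0.11.3, STAR 2.7.3a and bcl2fastq 2.18.0.12, and the build is GRCh38; no roles are stated there. The annotation release and the strand setting of the counting were not given in the sources used here. In the table, 5 summary lines that name no gene (24.1% to 44.6% of counted reads) stayed out of library sizes and tests.

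Gene symbols were found for 60649 of 67008 identifiers (90.5%). Coordinates, transcript lengths and GC content came from GENCODE release files, and promoter sequences from RefSeq. TMM factors were 0.779 to 1.21, and filterByExpr removed low genes with a minimum count of 10 and a minimum total of 15. The quasi-likelihood test of edgeR 4.0.16, run in R 4.3.3, gave p-values adjusted by Benjamini and Hochberg's method over all tested genes, with a threshold of 0.05. Standard errors are the size of the log2 fold change divided by the square root of F. Comparisons of lines fitted a mean for each line in 1 model of all 8 libraries. The scripts were tested on simulated data with known changes.

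Replicate 2 of each line is the library with the title suffix UnTx, which the labels do not explain. Libraries of a line had rank correlations of 0.912 to 0.974 and differed by more than sampling noise (chi-square per degree of freedom 88.9 to 185). Alternatives were no filter, RLE factors, DESeq2 1.42.0, the title suffix as a block, offsets for GC content and gene length, single lines as class, counts summed per line, limma-voom (limma 3.58.1) with the line as a random block, and leaving out each library. GC content was available for 98.7% of tested genes.

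Named genes were the 9 members, PDE10A, the 2 genes with the smallest p of each of the 7 lists and any list gene called, and the 5 protein-coding genes nearest to NMUR2 among those averaging 1 CPM or more. Members and lists were chosen with earlier results of these data known.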

Additional observations from a re-analysis of the deposited data

Results flagged for a closer look

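ADORA1 differed between the control lines, with a log2 fold change of -3.81 for EV 1B9 against parental cells (SE 0.73, adjusted p 0.0181, edgeR). Knockout against EV 1B9 alone gave 4.06 on the log2 scale (adjusted p 0.0150), knockout against parental cells alone gave 0.20 (adjusted p 0.948), and the class comparison with both controls gave 1.14.

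A gap of 1 library from the rest of its class was found in 3 of 18 groups of 4 libraries examined by Dixon's criterion, where chance gives about 1 in 20 groups. NMUR2 was at 0.222 CPM in KO 5H5 1 and at 0 to 0.0353 CPM in the other knockout libraries, a gap of few counts. ADORA2B was at 24.4 CPM in KO 2F4 1, against 8.17 to 9.91 CPM in the other knockout libraries. PTGER4 was at 0.2235 CPM in parental 2 and at 0 to 0.0288 CPM in the other control libraries, also on few counts.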

How the results depend on the processing

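NMUR2 kept its direction and its call in all 21 alternatives for knockout against control, and ADORA1 kept its 3 line calls in all 14. Genes called for knockout against control were 192; they numbered 714 with no filter, 784 with DESeq2, 124 with the replicate block, 550 with GC and length offsets, 1108 with 1 mean per line, 912 with EV 1B9 alone as control, 48 with parental cells alone, 77 with KO 5H5 alone, 111 with KO 2F4 alone, 11 with counts summed per line and 34 with limma-voom. Leaving out 1 library gave 66 (without KO 5H5 1) to 222 (without parental 1), among them 80 without KO 2F4 1, 78 without EV 1B9 1 and 76 without EV 1B9 2. Of the 192 calls 79.2% were lower, against 55.6% with GC and length offsets, which moved the median of all genes to 0.037 from -0.14 on the log2 scale, 58.3% with no filter, 59.1% with DESeq2, 62.2% with the block and offsets together 53.5% with 1 mean per line, 91.7% with parental cells alone and 44.1% with EV 1B9 alone as control (510 higher, 402 lower). Members called were 2 instead of 1 with 1 mean per line and with EV 1B9 alone as control, and for EV 1B9 against parental cells 2 instead of 1 without KO 2F4 1 or without KO 2F4 2. Pathway list genes called were 2, and became 11 with no filter, 11 with DESeq2, 6 with GC and length offsets, 14 with 1 mean per line, 11 with EV 1B9 alone, 1 with parental cells alone, 0 with KO 5H5 alone, 0 with counts summed per line, 1 with limma-voom, and 1 to 3 (3 without parental 1) when a library was left out.

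Directions turned only for values that did not pass the test. For knockout against control, on the log2 scale, NMU became 0.12 with parental cells alone and ranged from -0.64 to 0.096 (without EV 1B9 1) when 1 library was left out. PTGER2 became 0.042 with RLE, 0.047 with DESeq2, 0.18 with offsets, 0.25 with the block and offsets, 0.12 with parental cells alone and 0.16 with KO 2F4 alone, and ranged from -0.29 to 0.40 when 1 library was left out. GNAS became 0.22 with EV 1B9 alone and 0.12 with KO 5H5 alone, and ranged from -0.14 to 0.14, and GNAI1 became 0.035 with parental cells alone. In line comparisons with 1 library left out, GNAI1 ranged from -0.49 to 0.082 for KO 5H5 against parental cells, from -1.43 to 1.10 for KO 2F4 against parental cells and from -1.21 to 1.35 for KO 2F4 against KO 5H5, and ADORA1 from -0.92 to 0.14 for KO 2F4 against parental cells. The cause of these changes was not tested. Deviations of same-numbered libraries correlated at -0.256 to 0.204 between lines. With 2 libraries per line and GC trends that differ between libraries, these values cannot show whether the title suffix pairs the samples. With few counts, PTGER2 and PTGER4 are limited by depth.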

Other observations

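Several other genes of the pathway lists passed the test between the clones and EV 1B9. They lie outside the naming rule, apart from S1PR1, ENTPD2, GNG11, SLC29A2, ADRA2C and F2RL1. They were chosen after their values were seen, and the comparisons below share the EV 1B9 libraries. Against EV 1B9, 5 of 85 tested list genes were higher and 5 lower in KO 5H5. That is 11.8% in either direction (background 4.38%, with 2.69% higher and 1.68% lower). In KO 2F4 9 were higher and 7 lower, or 18.8% (background 13.0%, with 6.87% higher and 6.11% lower). Against parental cells 0 were called for KO 5H5 by edgeR (background 0.740%). At an unadjusted p under 0.05 there were 16 of 85, or 18.8%, beside 8.86% of all genes. Against parental cells 2 list genes, ADRA2C and ENTPD2, were lower in KO 2F4. That is 2.35% of those tested (background 1.34% in either direction and 1.04% lower).

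ADA, which deaminates adenosine, was at 114 and 103 CPM in KO 5H5 and 96.8 and 139 CPM in KO 2F4, against 13.8 and 19.8 CPM in EV 1B9 and 68.4 and 56.5 CPM in parental cells. By edgeR it was 2.78 higher on the log2 scale in KO 5H5 than in EV 1B9 (adjusted p 0.00146), and 2.85 higher in KO 2F4 than in EV 1B9 (adjusted p 0.00110). PTGES, the synthase of prostaglandin E2, was at 53.7 and 46.1 CPM in KO 5H5 and 29.01 and 30.6 CPM in KO 2F4, against 2.22 and 5.61 CPM in EV 1B9 and 34.4 and 17.4 CPM in parental cells. S1PR1 had 790 counts in KO 5H5 and 139 in KO 2F4, against 2 in EV 1B9 and 84 in parental cells. ADORA1, ADA, PTGES and S1PR1 were each lower in EV 1B9 than in parental cells by the test (adjusted p 0.0181, 0.0349, 0.0187 and 0.00294, edgeR). With OXTR, described below, 4 of 85 tested list genes were called in that comparison, all of them lower. That is 4.71%, beside 1.34% of all genes in either direction and 1.18% lower. The call for ADA held in 9 of 14 alternatives and that for PTGES in 11, and both were lost with GC and length offsets (adjusted p 0.0807 and 0.0543).

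OXTR, the oxytocin receptor, was called higher than in EV 1B9 in KO 5H5 (log2 fold change 5.41, adjusted p 0.00132, edgeR), and EV 1B9 was lower than parental cells (-3.55, adjusted p 0.0364). It was at 29.3 and 43.3 CPM in KO 5H5 and 3.16 and 3.23 CPM in KO 2F4, against 0.173 and 1.67 CPM in EV 1B9 and 11.3 and 9.30 CPM in parental cells. Other list genes were called in the opposite direction, lower in a clone than in EV 1B9. GNG11, SLC29A2 and ADRA2C were lower in each clone. NT5E was lower in KO 5H5 (-2.24, adjusted p 0.0122, edgeR), and F2RL1, GNAI3 and GNB4 were lower in KO 2F4. ENTPD2 was also lower in each clone and had no count in KO 2F4. At a floor of 3 counts over both libraries it was at least 93.8-fold lower than in EV 1B9 (adjusted p 0.00123, edgeR). It was at least 43.2-fold lower than in parental cells (adjusted p 0.0129). ENTPD2 passed the filter on low counts through its control libraries, so these p-values are given as a description.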
